A study of Mus musculus with 3 samples.

Results

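The genes described here encode the proteins that store, move and read calcium in neurons: calmodulins, calmodulin-dependent kinases and their inhibitors, the phosphatase calcineurin and its regulators, calcium release channels, pumps and exchangers, store-operated entry proteins, and small EF-hand calcium sensors. They were chosen by name from a fixed list of 52 genes, and all 52 had a row among the 32531 gene symbols of each count table. Their messages were measured in RNA immunopurified from prefrontal cortex. The adult mice, of the line Slc17a6-TRAP JX883, were untreated transgenics that carry EGFP-tagged ribosomal protein L10a (EGFP/Rpl10a) under control of Slc17a6, the gene of the vesicular glutamate transporter VGLUT2. Translating ribosome affinity purification (TRAP) pulls down tagged polysomes with antibodies to EGFP and recovers the messages they carry. There were 3 libraries in 1 group, each from a pool of 3 mice of the single line JX883, and the labels give neither sex nor exact age. No input RNA and no untagged control were analysed here, so every level is an abundance in the immunopurified RNA and not an enrichment over the tissue.

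Calcium enters a neuron through membrane channels or leaves the endoplasmic reticulum through IP3 and ryanodine receptors, and is cleared by ATP-driven pumps and by sodium-calcium exchangers. Calmodulin binds the ion and turns on calmodulin-dependent kinases, of which CaMKII is an abundant protein of excitatory synapses, and the phosphatase calcineurin, which opposes many kinase effects. The neuronal calcium sensors are a related family of EF-hand proteins, several of which carry a fatty acid tail that lets them move to membranes when calcium rises.

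Counts of named genes summed to 12592174, 8964137 and 12648577 in replicates 1, 2 and 3. CPM is a gene's count over that total, scaled to 1000000, and RPKM is CPM per kilobase of annotated exon. CPM is used to follow 1 gene across libraries, and RPKM to compare the levels of different members. Markers and pathway genes outside the members are ordered by CPM, which also rises with gene length. Slc17a6, whose control elements drive the tag, stood at 857, 723 and 913 CPM, and Sv2b was the next highest of 6 glutamatergic markers at 691 ± 63.1 CPM. Cortical glutamatergic markers were present, with Slc17a7 at 307 ± 17.3 CPM and Tbr1 at 181 ± 17.9 CPM (SD, n = 3 here and throughout). Markers of other classes were also present: the summed level was 968 to 972 CPM for 7 of 7 GABAergic genes, led by Gad2, and 1326 to 1520 CPM for 7 of 7 astrocyte genes, led by Slc1a2 and Aldoc. The sum was 427 to 588 CPM for 7 oligodendrocyte genes, led by Mbp, and 32.2 to 41.0 CPM for 7 microglia genes, led by Csf1r and Ctss, with C1qa at 0. Endothelial genes, led by Itm2a and Flt1, summed to at most 10.5 CPM, with Cldn5 at 0.0529 CPM. Mural genes, led by Rgs5 and Acta2, summed to at most 28.5 CPM, and 5 cerebellar genes, led by Calb2 and Car8, summed to 59.9 to 80.5 CPM. Most of that cerebellar sum was Calb2, at 68.1, 76.2 and 49.7 CPM, which is also listed below as a calcium buffer. Of the 5 cerebellar genes, 2 reached 1 CPM in every library, and Gabra6 and Pcp2 had fewer than 10 counts in each. Striatal genes, led by Penk and Pde10a, summed to 390.2, 538 and 625 CPM in replicates 1, 2 and 3, and olfactory bulb genes, led by Cdhr1 and Trh, to 169.9, 145 and 64.1 CPM. In such bulk RNA, fewer cells of a type and less RNA per cell cannot be told apart, and the part that each cell class had in the levels below was not tested.

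Most of the listed messages were detected in this RNA, and many were abundant. Of the 52 members, 48 reached 1 CPM or more in every library, against 12321 of all 32531 symbols (37.9%). At a mean of 100 CPM or more stood 27 members (51.9%), against 6.60% of all symbols, and 6 members averaged over 1000 CPM. The symbols include 14154 with no count in any library, and the members were listed with earlier results of these data known. These shares therefore describe the list and are not a test. Among genes at 1 CPM in every library, the median was 182 CPM in members and 24.0 CPM in all symbols. The members together held 2.72% ± 0.01 of all named-gene counts, and the 5 highest, Vsnl1, Calm2, Camk2a, Hpcal4 and Ppp3ca, held 59.1% of that. The 4 members below 1 CPM in some library were the calcium pump genes Atp2a1 and Atp2a3, the IP3 receptor gene Itpr3 and the calmodulin-binding peptide gene Pcp4.

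Coding sequences of the small calcium sensors are shown first, because these proteins are close relatives whose messages spanned a wide range of levels. Each of the 6 genes Vsnl1, Hpcal4, Hpca, Ncald, Ncs1 and Hpcal1 encodes 190 to 193 codons with 3 stretches that fit the EF-hand calcium-binding loop. The 36 bases that encode the first of these loops, codons 73 to 84 in each gene, are given 5′ to 3′ from the GENCODE M21 transcripts, with capitals where a base differs from Vsnl1.
Vsnl1: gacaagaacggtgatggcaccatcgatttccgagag
Hpcal4: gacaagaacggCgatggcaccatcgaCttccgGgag
Hpca: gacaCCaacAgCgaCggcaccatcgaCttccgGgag
Hpcal1: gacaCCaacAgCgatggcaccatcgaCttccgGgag
Ncald: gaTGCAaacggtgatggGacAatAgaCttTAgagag
Ncs1: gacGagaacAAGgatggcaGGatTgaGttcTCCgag

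In mm10 coordinates, the Vsnl1 stretch is exonic at chr12:11332127-11332162 (minus strand), that of Hpcal4 at chr4:123189079-123189114 (plus strand), that of Hpca at chr4:129118490-129118525 (minus strand), that of Hpcal1 at chr12:17786387-17786422 (plus strand) and that of Ncald at chr15:37397183-37397218 (minus strand). The Ncs1 stretch spans a splice junction between chr2:31280793 and chr2:31282332. Against Vsnl1, 3 bases differed in Hpcal4, 6 in Hpcal1, 7 in Hpca, 10 in Ncald and 11 in Ncs1. Over whole coding sequences, Vsnl1 shared 82.4% of bases with Hpcal4, 71.8% with Hpcal1 and 63.9% with Ncs1. The closest pair was Hpca and Hpcal1 at 86.0%. The deposited tables hold reads aligned at more than 1 position on a line apart from the genes, so reads shared by relatives could be missing from both.

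Vsnl1, which encodes visinin-like protein 1, was the highest member and rank 3 of all genes. Its level was 6790.2, 6994 and 6459 CPM in replicates 1, 2 and 3, or 3449.7 ± 138 RPKM. All 3 libraries lay within 1.08-fold of each other. Hpcal4, a close relative, followed with 1385, 1714 and 1711 CPM, or 300.4 ± 35.4 RPKM, lowest in replicate 1. Hippocalcin (Hpca) had 420.1, 411 and 461 CPM, or 147 ± 9.12 RPKM. Ncald (47.4 ± 5.34 RPKM) and Ncs1, the ancestral member of the family also known as frequenin (46.3 ± 4.51 RPKM), stood close together. Hpcal1 was lowest at 33.8, 31.3 and 43.2 CPM, or 21.3 ± 3.68 RPKM. Vsnl1 thus made up 86.0% ± 1.17 of the RPKM of these 6 genes.

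Differences between members of a family were taken within each library on the log2(RPKM + 0.1) scale. Across 16 families there were 58 pairs, and 56 kept 1 direction in 3 of 3 libraries. The exact two-sided sign-flip permutation p of a pair cannot go below 0.25 with 3 libraries, and the smallest p adjusted over all pairs was 0.259, so no pair passed 0.05. For neighbours in level, the ranges of RPKM over libraries overlapped in 3 of 32 pairs: Ppp3cb and Ppp3cc, Itpr2 and Itpr3, and Ncald and Ncs1. Vsnl1 exceeded Hpcal4 by 3.53 ± 0.19 log2 units and Hpcal1 by 7.35 ± 0.30 units. Hpca and Hpcal1, the pair closest in coding sequence, differed by 2.80 ± 0.15 units. Ncald and Ncs1 differed by 0.03 ± 0.28 units, in 2 of 3 libraries, which is within their spread, and by -0.10 to 0.18 units with 1 replicate left out. With the longest transcript in place of merged exons, Ncald stood 1.23 units above Ncs1.

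**Figure D1:**
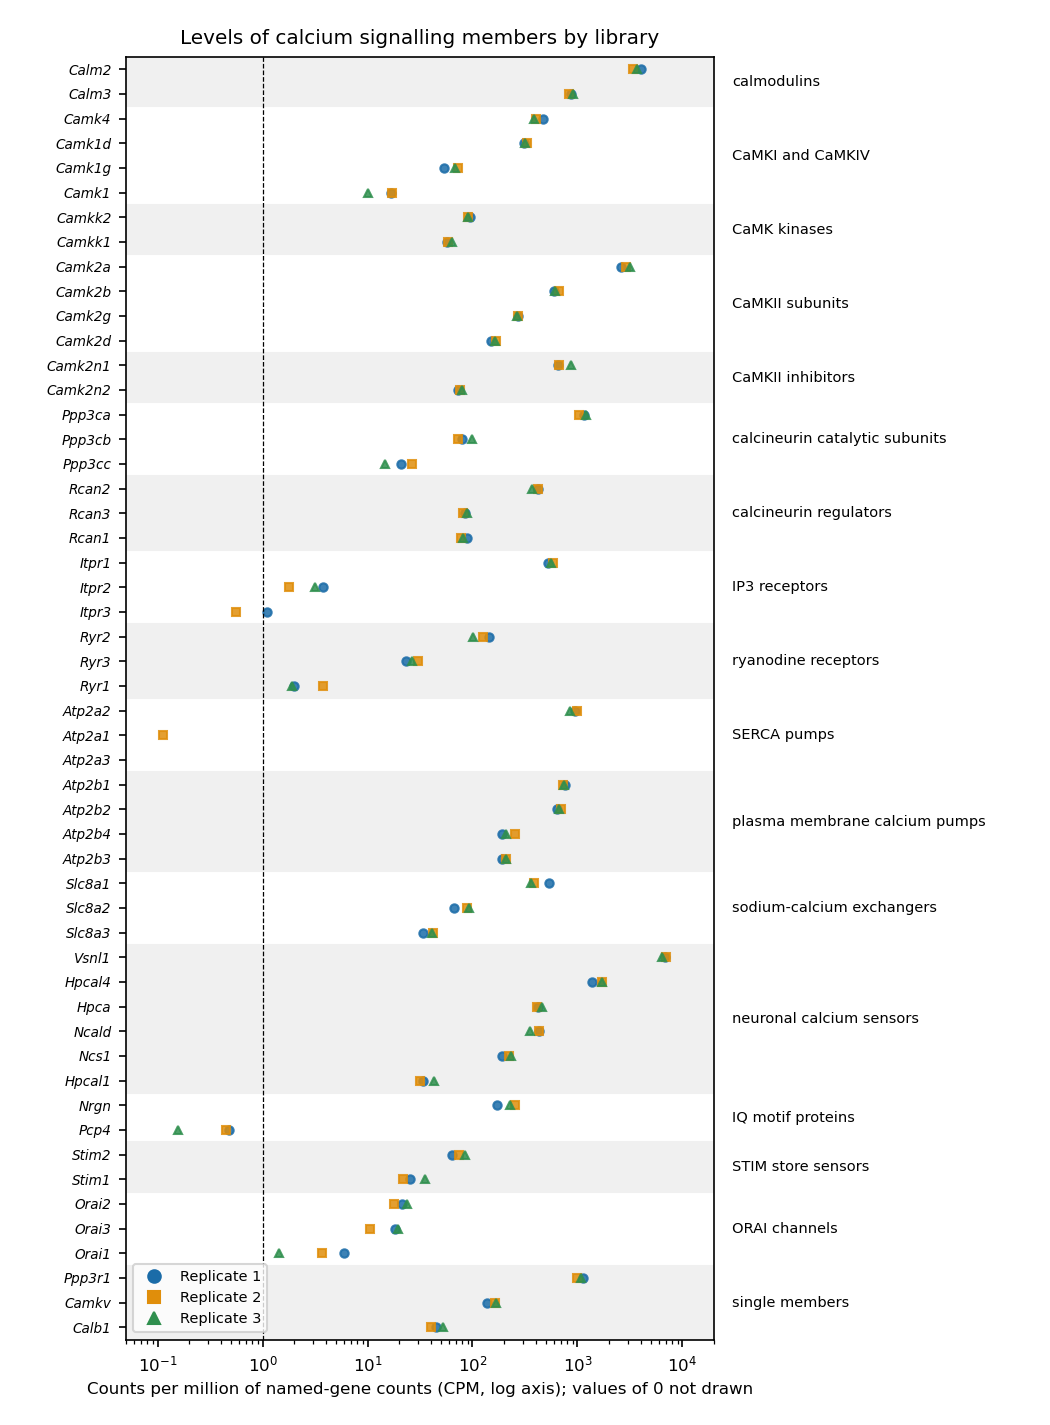
Levels of the 52 members in each library, in CPM on a log axis, grouped by family; circles, squares and triangles are replicates 1, 2 and 3, the dashed line marks 1 CPM, and values of 0 are not drawn. Most members lie to the right of the dashed line with the 3 libraries close together, while Atp2a1, Atp2a3, Pcp4 and part of Itpr3 lie to its left or are at 0.

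Promoter windows were available for 39 of the 52 members (49 windows of 300 bases around a start site, RefSeq on GRCm38.p6). No window was matched for Atp2a2, Atp2b3, Calb1, Calm2, Camk2a, Camk2g, Camk2n1, Camk4, Itpr1, Ncald, Ppp3ca, Ppp3cc and Ryr3. Windows of Vsnl1, Hpcal4 and Hpcal1 are printed because these genes are the highest 2 sensors and the lowest. They run 5′ to 3′ on the strand of the gene, with GC boxes (GGGCGG on either strand) in capitals. The first Vsnl1 window is chr12:11436529-11436828 (minus strand), that of Hpcal4 is chr4:123183254-123183553 (plus strand) and that of Hpcal1 is chr12:17690559-17690858 (plus strand).
Vsnl1: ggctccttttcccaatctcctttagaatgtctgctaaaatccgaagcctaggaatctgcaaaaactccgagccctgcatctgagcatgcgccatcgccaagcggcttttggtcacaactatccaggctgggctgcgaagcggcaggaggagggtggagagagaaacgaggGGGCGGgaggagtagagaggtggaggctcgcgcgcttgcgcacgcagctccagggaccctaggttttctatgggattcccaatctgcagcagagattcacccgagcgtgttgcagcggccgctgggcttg
Hpcal4: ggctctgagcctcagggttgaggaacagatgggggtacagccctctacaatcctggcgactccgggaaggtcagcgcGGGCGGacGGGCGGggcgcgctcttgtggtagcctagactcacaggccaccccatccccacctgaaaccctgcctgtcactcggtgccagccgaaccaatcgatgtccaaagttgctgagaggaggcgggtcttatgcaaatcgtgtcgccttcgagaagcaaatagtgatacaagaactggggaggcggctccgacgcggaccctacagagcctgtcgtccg
Hpcal1: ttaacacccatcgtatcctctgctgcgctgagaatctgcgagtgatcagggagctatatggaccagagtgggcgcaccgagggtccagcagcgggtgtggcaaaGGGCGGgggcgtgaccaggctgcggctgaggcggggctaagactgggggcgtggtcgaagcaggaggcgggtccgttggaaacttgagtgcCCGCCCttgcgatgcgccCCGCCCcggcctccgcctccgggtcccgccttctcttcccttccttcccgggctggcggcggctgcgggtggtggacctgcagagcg

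The printed Vsnl1 window held 1 GC box, that of Hpcal4 held 2 and that of Hpcal1 held 3. A second Vsnl1 window, at chr12:11435602-11435901 (minus strand), held 0 and had a GC content of 44.3%, against 58.7% in the first. Across members, 36 of 49 windows held a GC box (73.5%), against 35.7% of all 32851 windows, and the median GC content was 67.7% against 52.7%. TATAAA, searched on both strands, was in 0 of 49 windows and in 13.6% of all windows. The cyclic AMP response element TGACGTCA was in 1 window, of Rcan1 (2.04%), against 1.79% of all. The E box CACGTG was in 5 windows (10.2%) against 7.15%. All windows include many genes with no count here, and these matches describe letters in a window and not sites in use.

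Calmodulin itself was represented by Calm2 (mm10 chr17:87433412-87446935, minus strand) and Calm3 (chr7:16915379-16924114, minus strand), which encode the ubiquitous EF-hand sensor that activates the kinases and calcineurin. Calm2 had 4067, 3375 and 3692 CPM, rank 9 of all genes, and was lowest in replicate 2. Calm3 had 873, 822 and 900.2 CPM. Per length, Calm2 stood 2.82 ± 0.11 log2 units above Calm3, or 7.07-fold, and held 87.6% ± 0.78 of their summed RPKM.

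The CaMKII holoenzyme is built from subunits of 4 genes, and the alpha subunit message led them. Camk2a had 2609, 2904 and 3138 CPM, rank 13 of all genes, highest in replicate 3. It held 76.6% ± 1.72 of the RPKM of the family, against 13.6% ± 1.03 for Camk2b, 8.40% ± 0.75 for Camk2g and 1.43% ± 0.053 for Camk2d. Camk2a exceeded Camk2b by 2.50 ± 0.14 log2 units (5.64-fold). Camk2b exceeded Camk2g by 0.69 ± 0.08, and Camk2g exceeded Camk2d by 2.54 ± 0.10. With longest transcripts these differences were 1.94, 1.05 and 1.31 units. Camk2a then exceeded Camk2d by 4.30 units, against 5.73 with merged exons. The shares above thus depend on the length used, and their SD covers libraries only. Camk2g varied least between libraries among members above 100 CPM, at 274, 270.3 and 265 CPM. Of the small CaMKII inhibitor proteins, Camk2n1 had 655, 668 and 864 CPM, highest in replicate 3, and Camk2n2 had 72.5, 76.5 and 79.9 CPM. Per length Camk2n1 exceeded Camk2n2 by 1.46 ± 0.16 units. Camkv, a kinase-like vesicle protein without kinase activity, was at 156 ± 15.3 CPM.

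The other calmodulin kinases act in a cascade in which Camkk1 and Camkk2 encode upstream kinases that phosphorylate CaMKI and CaMKIV. Camk4, the nuclear kinase of this cascade, was its highest member with 471, 399 and 386 CPM, or 128 ± 14.1 RPKM. Camk1d (311, 334 and 318 CPM, 43.2 ± 1.57 RPKM) and Camk1g (54.0, 72.2 and 68.6 CPM, 23.5 ± 3.49 RPKM) followed. Camk1 was lowest at 14.8 ± 3.99 CPM, or 2.48 ± 0.668 RPKM. Camk4 stood 1.56 ± 0.19 log2 units above Camk1d and 5.67 ± 0.34 above Camk1, each in 3 of 3 libraries. With longest transcripts the latter difference was 4.65 units. Camkk1 was at 59.6 ± 3.30 CPM and Camkk2 at 92.1 ± 1.93 CPM. Their order depended on length: Camkk1 was higher by 0.91 ± 0.10 units per merged exon and lower, at -0.24 units, per longest transcript.

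Calcineurin consists of a catalytic A subunit, of which Ppp3ca encodes the main neuronal form, and a regulatory B subunit encoded by Ppp3r1. Ppp3ca had 1163, 1042 and 1197 CPM and Ppp3r1 had 1126, 989 and 1080.4 CPM, both lowest in replicate 2. Ppp3ca held 87.4% ± 1.22 of the RPKM of the catalytic genes and exceeded Ppp3cb by 3.59 ± 0.14 log2 units. Ppp3cb (78.9, 72.5 and 97.9 CPM) and Ppp3cc (21.0, 26.3 and 14.7 CPM) differed by 0.47 ± 0.64 units per length, within their spread, and by 0.12 units without replicate 3, 0.75 without replicate 2 and 1.40 with longest transcripts. Of the exonic bases of Ppp3r1, 14.3% are shared with Wdr92, which averaged 10.1 CPM. The regulators of calcineurin bind the enzyme directly. Rcan2 led them at 426, 420.0 and 366 CPM, or 92.4 ± 7.48 RPKM. It exceeded Rcan1 (26.8 ± 1.66 RPKM) by 1.78 ± 0.13 units, and Rcan1 exceeded Rcan3 (16.6 ± 0.634 RPKM) by 0.68 ± 0.07 units. By CPM this last order turned, at -0.045 units, and with longest transcripts the difference was 1.09 units.

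**Figure D2:**
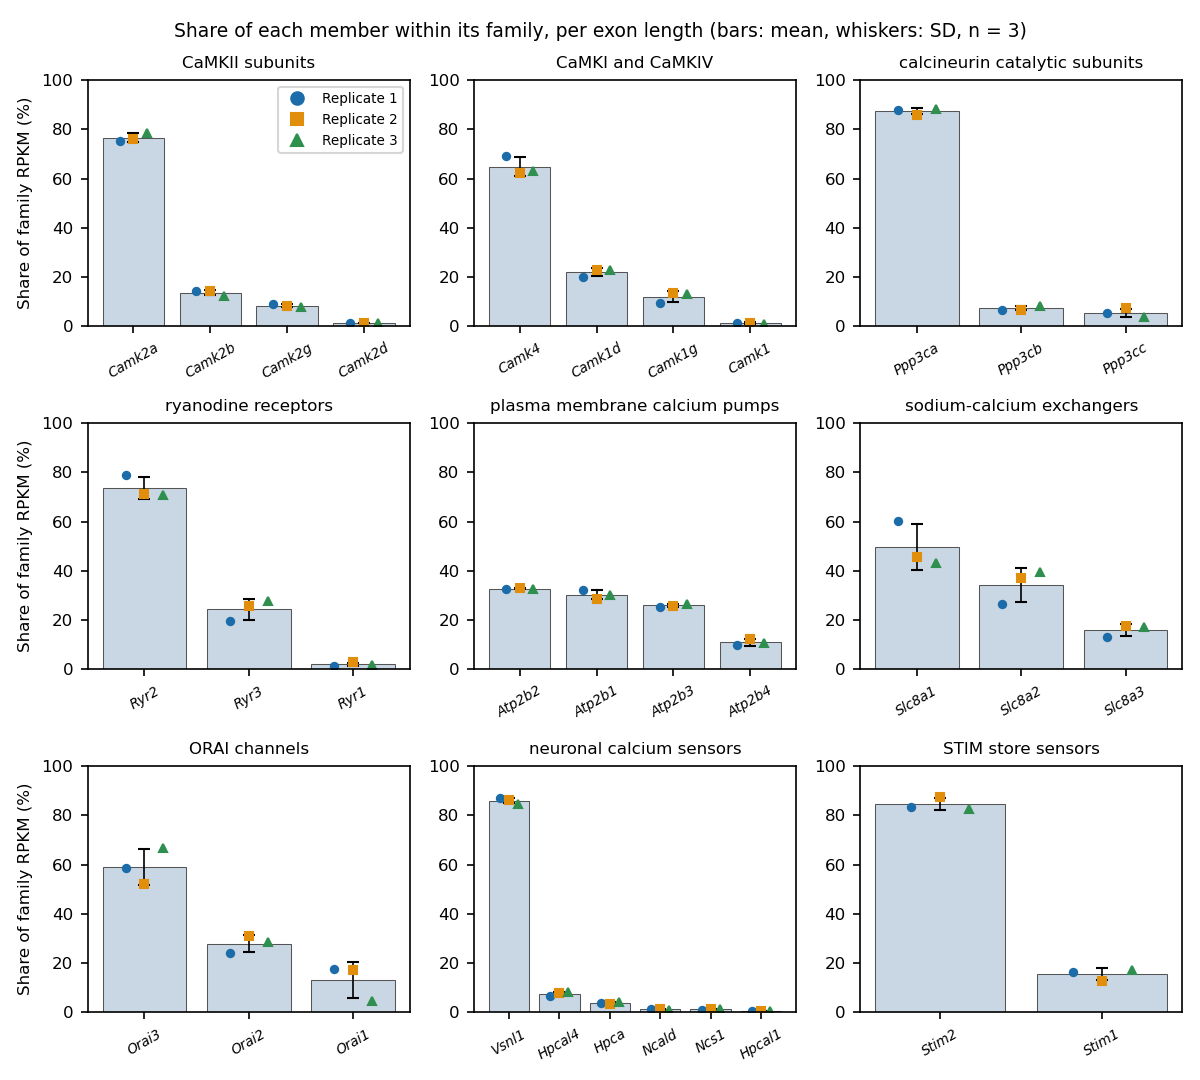
Share of each member in the summed RPKM of its family, for 9 families; bars are means, whiskers SD (n = 3), and symbols the 3 libraries. Camk2a, Ppp3ca, Vsnl1 and Stim2 hold 76.6%, 87.4%, 86.0% and 84.5% of their family RPKM. With merged exon lengths, the plasma membrane pumps Atp2b2, Atp2b1 and Atp2b3 hold 32.8%, 30.3% and 26.0%. All shares use merged exon lengths and depend on the length used. With longest transcripts Atp2b1 stands 1.26 log2 units above Atp2b3, against 0.22 with merged exons. Likewise, Stim2 then stands 1.26 units above Stim1, against 2.42, and Camk2a stands 1.94 units above Camk2b, against 2.50.

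Release channels of the endoplasmic reticulum were led by 1 receptor gene in each class, by far more among IP3 receptors than among ryanodine receptors. Itpr1, the IP3 receptor gene typical of neurons, had 521, 581 and 558 CPM and held 99.1% ± 0.39 of the RPKM of its family. Itpr2 had 3.73, 1.78 and 3.16 CPM, from 16 to 47 counts, and Itpr3 had 14, 5 and 0 counts. Itpr1 exceeded Itpr2 by 6.71 ± 0.42 log2 units on a scale whose pseudocount shrinks such low levels, by 4.71 units with a pseudocount of 1 and by 7.37 with longest transcripts. Ryr2, best known from heart and also the main ryanodine receptor of cortex, had 143, 126 and 102 CPM. It stood 1.54 ± 0.34 units above Ryr3 (23.4, 30.1 and 26.3 CPM). Ryr2 held 73.6% ± 4.60 of the RPKM of its family and Ryr3 held 24.4% ± 4.20. Ryr1, the skeletal muscle form, was at 0.117 ± 0.0490 RPKM against 4.29 ± 0.713 RPKM for Ryr2. Per length, Itpr1 at 30.2 ± 1.63 RPKM was above all 3 ryanodine receptor genes.

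Pumps that refill the endoplasmic reticulum were represented by Atp2a2, the housekeeping SERCA2 pump, at 953, 985 and 851 CPM. Atp2a3 had 0 counts in every library, which allows up to 3 counts in each, so that Atp2a2 was at least 2557-fold higher per length. Atp2a1, the fast-muscle pump, had 1 count in all, and Atp2a2 exceeded it 18065-fold per length (95% exact binomial interval 3242 to 713568, counting error only). A share of 21.9% of the exonic bases of Atp2a1 overlaps Rabep2 on the other strand.

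Calcium export across the plasma membrane was spread over several genes. The pumps Atp2b1 (764, 733 and 749 CPM) and Atp2b2 (644, 704 and 667 CPM) were the highest by CPM, and Atp2b3 (203 ± 9.65 CPM) and Atp2b4 (218 ± 34.5 CPM) lay lower. Per length, Atp2b2 exceeded Atp2b1 by 0.11 ± 0.09 log2 units in 3 of 3 libraries, and with longest transcripts it was lower, at -0.47 units. Without replicate 2 the difference was 0.064 units. Atp2b1 exceeded Atp2b3 by 0.22 ± 0.10 units with merged exons, by 1.26 with longest transcripts and by 1.88 without division by length. Atp2b3 exceeded Atp2b4 by 1.25 ± 0.17 units per length, and by CPM it was lower, at -0.092 units. The sodium-calcium exchanger gene Slc8a1 had 541, 387 and 365 CPM, highest in replicate 1, and was not called as varying between libraries (adjusted p = 0.537 in edgeR). Slc8a2 (66.8, 87.8 and 93.4 CPM) and Slc8a3 (33.7, 41.8 and 41.5 CPM) were lowest in replicate 1. The excess of Slc8a1 over Slc8a2 was therefore uneven between libraries, at 0.53 ± 0.56 log2 units and 0.21 without replicate 1, and the Slc8a1 share of the exchanger RPKM was 49.7% ± 9.22.

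Store-operated entry uses STIM proteins, which sense calcium in the store, and ORAI channels, which STIM opens in the plasma membrane. Stim2 had 64.2, 74.0 and 84.4 CPM and exceeded Stim1 (25.6, 21.6 and 35.7 CPM) by 2.42 ± 0.27 log2 units per length. With longest transcripts this was 1.26 units. The ORAI messages were low. Orai2 had 21.4, 17.7 and 24.0 CPM, Orai3 had 18.4, 10.5 and 19.6 CPM, and Orai1 had 5.96, 3.68 and 1.42 CPM, from 75, 33 and 18 counts. Orai3 exceeded Orai2 by 1.06 ± 0.29 units per length, by 0.47 with longest transcripts, while by CPM it was lower, at -0.42 units. Orai2 exceeded Orai1 by 1.25 ± 1.09 units, and by 0.63 units without replicate 3.

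Among calmodulin-binding peptides and buffers, the levels of Nrgn and Pcp4 were far apart. Both proteins bind calmodulin through an IQ motif, whose coding bases are given because the motif is what the pair shares, with the isoleucine and glutamine codons in capitals. That of Nrgn is at chr9:37546061-37546093 (minus strand) and that of Pcp4 at chr16:96525464-96525496 (plus strand).
Nrgn: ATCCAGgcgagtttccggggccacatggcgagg
Pcp4: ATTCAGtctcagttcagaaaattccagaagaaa

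Nrgn, the postsynaptic protein neurogranin of forebrain neurons, had 172, 256 and 228 CPM and was lowest in replicate 1. Pcp4 had 6, 4 and 2 counts, or 0.360 ± 0.176 CPM, where 3 counts are 0.238, 0.335 and 0.237 CPM in the 3 libraries. On the log2(RPKM + 0.1) scale they differed by 8.45 ± 0.79 units, and by 6.80 with a pseudocount of 1. Of the exonic bases of Pcp4, 23.7% are shared on the same strand with Igsf5, which had 0 counts in every library. The counting settings are not known, so reads in the shared bases could be missing from both genes. The related gene Pcp4l1 was at 168 ± 37.6 CPM. Calb1, which encodes the calcium buffer calbindin, was at 45.1, 40.6 and 52.7 CPM.

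**Figure D3:**
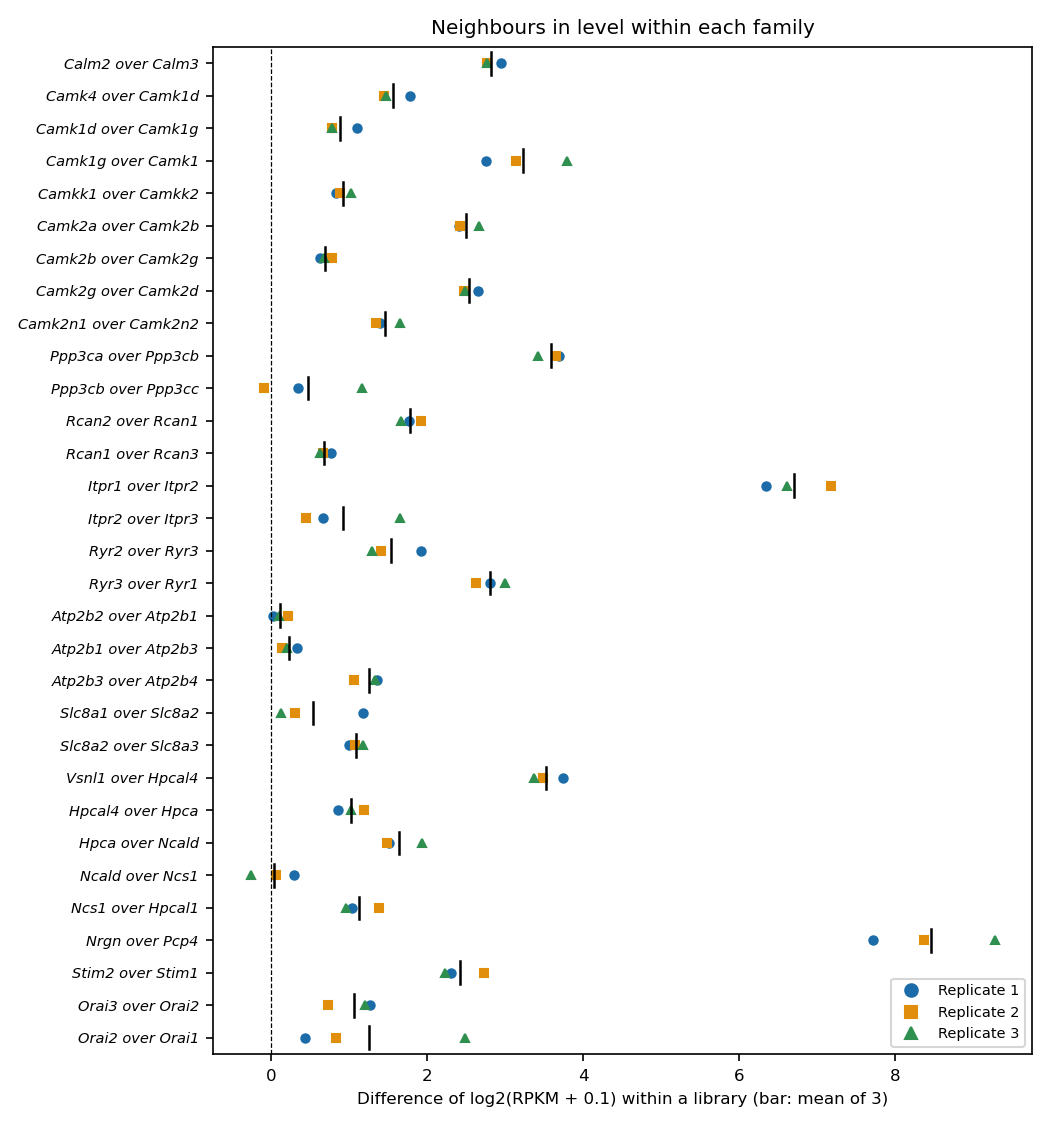
Differences of log2(RPKM + 0.1) between neighbours in level within each family, leaving out the pairs with Atp2a1 and Atp2a3; symbols are the 3 libraries and vertical bars their means. Ppp3cb over Ppp3cc and Ncald over Ncs1 straddle 0, and Nrgn over Pcp4 lies farthest to the right with a mean of 8.45.

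Variation between the 3 libraries was then examined in every gene at once. With edgeR's goodness of fit of an intercept-only model and Benjamini-Hochberg adjustment, 0 of the 49 members tested varied beyond genes of like abundance at an adjusted p of 0.05, against 36 of 14774 genes tested (0.244%). At an unadjusted p of 0.05, edgeR named 2 of 49 members against 1066 of all genes (7.22%), and the limma variance test named 4 members against 721 of all genes (4.88%). After adjustment limma called 0 members and 12 of all genes (0.0812%). On simulated data edgeR recovered 14% of genes moved 2-fold in 1 library, so 0 calls do not show that the members were steady. Those named by edgeR were Slc8a1 (adjusted p = 0.537) and Nrgn (adjusted p = 0.626). At an unadjusted p of 0.05, edgeR named 0 members without replicate 1 (6.58% of all genes), 3 without replicate 2 (6.43%) and 2 without replicate 3 (6.44%). In Slc8a1 replicate 1 was high and in Nrgn it was low. When edgeR used 1 dispersion for all genes, it called Itpr3, at 14, 5 and 0 counts (adjusted p = 0.0176), against 1097 of all genes (7.43%).

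The 27 members at 100 CPM or more differed by 1.03-fold to 1.49-fold between their highest and lowest library. Their median coefficient of variation was 7.57%, while counting error alone gives a median of 1.45% per library. The SD of log2(CPM + 0.5) over libraries had a median of 0.111 in these members, against 0.117 in all 2148 genes at that level. Over all 49 members tested the median was 0.154 against 0.266 in all genes tested, which include many of low abundance. Set against the median of their own abundance class, 20 of 49 members lay below it.

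**Figure D4:**
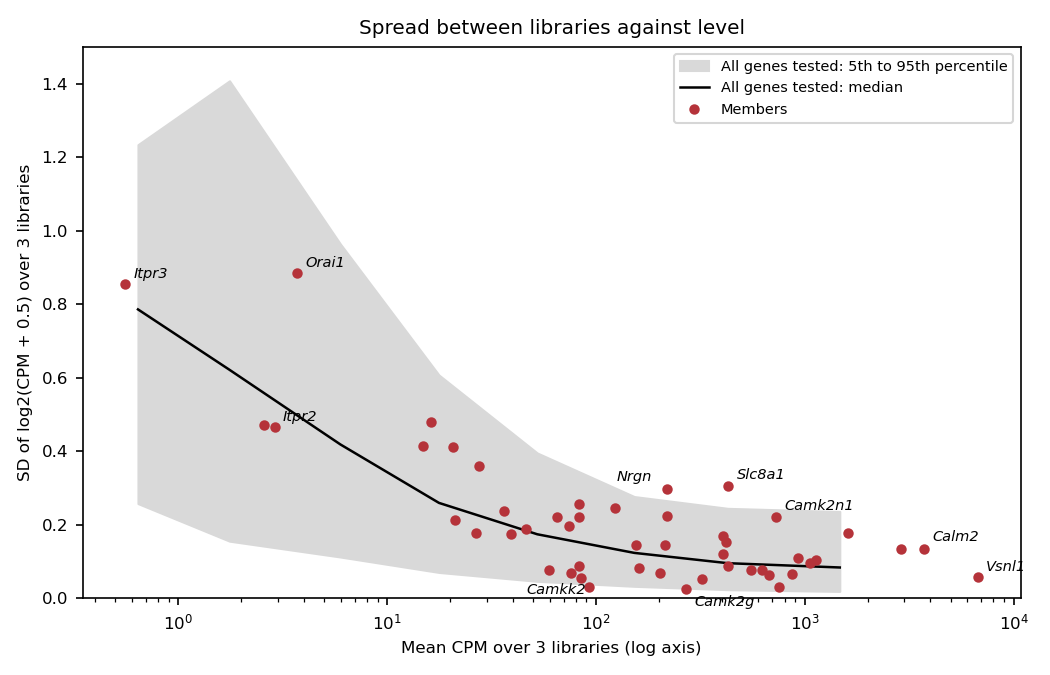
SD of log2(CPM + 0.5) over the 3 libraries against mean CPM (log axis) for the 49 members tested (points); the grey band spans the 5th to 95th percentile and the line the median of all genes tested in 8 classes of abundance, drawn at each class's median level. Nrgn and Slc8a1 lie above the band, and the remaining members above 100 CPM lie mostly within it.

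Marker sums of other regions and cell classes differed between libraries, and the members were set beside them. The olfactory bulb marker Cdhr1, at 116, 95.9 and 17.3 CPM, was called as varying (adjusted p = 2.28e-15 in edgeR). The sum of its class ran from highest in replicate 1 to lowest in replicate 3, and 9 of 49 members had that order (18.4%, against 17.3% of all genes tested), among them Camk4, Rcan2, Ryr2, Slc8a1, Ncald and Orai1. The striatal, astrocyte and oligodendrocyte sums had the opposite order, shared by 8 members (16.3%, against 15.2%), among them Camk2a, Camk2n1, Slc8a2, Ncs1 and Stim2. The glutamatergic sum, at 2459, 2187 and 2264 CPM, had an order shared by 5 members (10.2%, against 16.7%), namely Calm2, Rcan1, Itpr2, Atp2b1 and Ppp3r1. The part of these cell classes in the members' values was not tested.

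Calcium pathway genes outside the 52 members were read from a list of 77. Of these, 64 reached 1 CPM in every library (83.1%, against 37.9% of all symbols). A mean of 100 CPM or more was reached by 26 (33.8%, against 6.60% of all symbols). As for the members, these shares describe the list and are not a test. With edgeR, 0 of 66 tested varied between libraries after adjustment (0.244% of all genes tested). At an unadjusted p of 0.05 edgeR named 3, against 7.22% of all genes tested, namely Cabp7 (1.67, 8.14 and 9.33 CPM), Nfatc2 (11.4, 11.8 and 25.5 CPM) and Pcp4l1 (208, 163 and 133 CPM). The limma variance test also called 0, against 12 of all genes tested (0.0812%). With 1 dispersion for all genes edgeR called Cabp7 (adjusted p = 0.0214), against 7.43% of all genes tested.

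Relatives of the sensors were led by Kcnip3 (244 ± 27.9 CPM) and Kcnip4 (112 ± 12.8 CPM), which bind potassium channels, while the retinal sensors Guca1a and Guca1b and the gene Calml4 had 0 counts. By CPM, calcium buffers were led by Necab1 (161 ± 15.7 CPM) and Necab3 (139 ± 27.1 CPM), and Scgn was lowest at 2.37 ± 0.957 CPM. Per length, Necab3 (54.7 RPKM) and Calb2 (37.1 RPKM) stood above Necab1 (30.6 RPKM). Among calmodulin-linked kinases, Dclk1 (1403 ± 138 CPM) and the phosphatase gene Ppm1e (288 ± 41.8 CPM), which acts on calmodulin kinases, were highest and Mylk lowest at 7.16 ± 3.28 CPM. By CPM, calmodulin-binding proteins were led by the transcription activator gene Camta1 (1301 ± 94.4 CPM) and the growth cone protein gene Gap43 (824 ± 29.8 CPM). Marcks was lowest at 129 ± 10.4 CPM. Per length, Gap43 led at 541 ± 19.6 RPKM, followed by Pcp4l1 (106 ± 23.9 RPKM) and Camta1 (89.3 ± 6.48 RPKM).

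Mitochondrial calcium uptake was led by the outer membrane channel gene Vdac1 (289.5 ± 9.16 CPM) and by Micu3, a regulator of the uniporter (284 ± 22.5 CPM). The uniporter pore gene Mcu was at 31.0 ± 7.85 CPM, and the mitochondrial exchanger gene Slc8b1 was lowest at 1.45 ± 1.07 CPM. By CPM, store partners were led by the chaperone gene Canx (297 ± 49.7 CPM) and the junctional gene Jph4 (281 ± 29.2 CPM). Per length, Canx (63.3 RPKM) was followed by Calr (53.3 RPKM) and Tmem38a (43.1 RPKM), above Jph4 (39.8 RPKM). The SERCA inhibitor gene Pln had 2, 3 and 0 counts, with 64.7% of its exonic bases shared with genes on the other strand. In the phospholipase C and IP3 group, Ahcyl1 (481 ± 27.8 CPM), whose product binds IP3 receptors, and Plcb1 (369 ± 18.3 CPM) were highest and Itprip was lowest at 0, 6 and 0 counts. Calcineurin partners were led by the anchoring protein gene Akap5, at 180.3, 179.7 and 180.3 CPM, and by the coactivator gene Crtc1 (152 ± 18.7 CPM), and the testis B subunit gene Ppp3r2 had 0 counts. Of other pumps and exchangers, Slc24a2 (689.6 ± 87.7 CPM) and Slc24a3 (148 ± 17.0 CPM), both potassium-dependent sodium-calcium exchangers, were highest and Slc24a1 was lowest at 0, 2 and 2 counts.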

How the data were processed

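RNA immunopurified from 3 libraries was analysed as 1 group, taken from the sample titles. Values were the deposited counts of reads for each gene symbol, used as they stand. Per the submitters' processing notes, STAR 2.0.0e, HTSeq and mm10 were used, and their annotation, settings and use of strand are not known here, so overlapping and antisense genes may not have been told apart. Lines that name no gene held 27.8% ± 0.56 of counts and were left out. Nothing in the labels says more of the pools, so p-values rest on these libraries alone. Those of edgeR and limma measure the spread between libraries, and sign-flip p-values test differences between genes within them.

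CPM, RPKM and promoter or coding sequences came from the counts, GENCODE M21 (mm10) and RefSeq tables, matched by symbol (87.1% of symbols with a count, 52 of 52 members). Exon length was that of merged exons. Variation between libraries was tested in edgeR 4.0.16, with Benjamini-Hochberg adjustment over all genes. The settings were TMM, trended dispersion, deviance against chi-square with 2 degrees of freedom, and at least 10 counts in 1 library. On simulated data it recovered 14% of genes moved 2-fold in 1 library and 88% of those moved 4-fold, among 14144 genes. It also made 11 false calls among genes not moved. Only genes above a minimum mean count were moved, so recovery at low counts was not tested. Pairs used exact sign-flip permutation tests. Alternatives were limma 3.58.1, DESeq2 1.42.0 size factors, other count minimums, lengths and pseudocounts, and each replicate left out, in R 4.3.3 and Python 3.11.15. The members and lists were chosen with earlier results of these data known. Text names every member, the 2 highest and the lowest genes of each pathway group, the 2 highest markers of each class and genes called as varying, except a few that are not reported here. Other names (Slc17a7, Tbr1, Cldn5, C1qa, Mcu, Calr, Tmem38a, Igsf5, Wdr92, Rabep2, Cabp7, Nfatc2 and Pcp4l1) were chosen after their values were seen.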

Additional observations from a re-analysis of the deposited data

How the results depend on the processing

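The count of varying members was 0 with limma, DESeq2 size factors, either count minimum, an adjusted p of 0.01 in edgeR and each replicate left out, and 1 with a common dispersion (Itpr3). The count of varying pathway genes was likewise 0 under these settings and 1 with a common dispersion (Cabp7). Members at 1 CPM or more in every library numbered 48 with TMM-scaled totals, without Rn45s and without each replicate, and 45 at 2 CPM. Of 58 pairs, 55 to 58 kept 1 direction in every library under other lengths, pseudocounts and replicates left out, and 51 of 53 did among members at 1 CPM. Length decided the order of a few pairs. With longest transcripts, Camkk1 minus Camkk2 became -0.24 and Atp2b2 minus Atp2b1 became -0.47 log2 units. Without division by length, Camkk1 minus Camkk2 was -0.63, Rcan1 minus Rcan3 -0.045, Atp2b2 minus Atp2b1 -0.16, Atp2b3 minus Atp2b4 -0.092 and Orai3 minus Orai2 -0.42. With 1 replicate left out, Ncald minus Ncs1 ran from -0.10 to 0.18. No paired analysis was possible because there is 1 group. Gene-level counts do not separate splice forms, and differences that involve Pcp4, Itpr3 or Atp2a1 rest on few counts.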
